A study of Homo sapiens with 6 samples.

Results

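The 55 genes described here are mitosis and kinetochore genes, chosen by name with earlier results of these data known. They act in the G2 and M phases of the cell cycle and exclude the kinesin family apart from CENPE. All 55 were found among the 58735 genes of the deposited table, each on 1 row, on 20 chromosomes. The samples were Raji cells, an established human line of Burkitt lymphoma B cells, which in both groups carried a GFP-ffluc reporter, that is GFP and firefly luciferase. The treated group received 1 nM bryostatin-1, a marine macrolide that engages protein kinase C at its C1 domains, and its control received the solvent DMSO, both overnight in RPMI medium with serum. Polyadenylated RNA gave 3 libraries per group, 6 in all, from 1 line, and the labels do not say whether they came from separate cultures. P-values therefore rest on the spread among these libraries alone, which may be technical.

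Entry into mitosis is driven by CDK1 bound to A- and B-type cyclins, and exit by the anaphase-promoting complex (APC/C), a ubiquitin ligase that destroys cyclin B and securin. Kinetochores are built on CENPA-containing centromeric chromatin and hold chromosomes to spindle microtubules, while the spindle checkpoint delays the APC/C until all of them are attached. Transcripts of this gene class are scarce in resting and G1 cells and accumulate towards G2 and mitosis, when B-MYB and FOXM1 act on promoters with the MuvB complex through the cell cycle genes homology region (CHR). In bulk RNA a larger share of cells in these phases and more such RNA per cell cannot be told apart.

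Levels are FPKM, fragments scaled to gene length and library depth, and changes are differences of log2(FPKM + 1), bryostatin minus DMSO, from limma fitted over the 11071 genes averaging 1 FPKM or more. Depth was 19405370 to 24468270 reads on genes per library, and the members' mean reads per library ran from 45.5 for PRC1 to 10399 for NCAPD2. Mitochondrial genes took 2.78 to 3.35% of reads with bryostatin and 2.68 to 3.22% with DMSO. All 9 B-cell markers were expressed, summing to 2561 to 3286 FPKM in bryostatin libraries and 3003 to 3695 FPKM in DMSO libraries. The 8 T-cell markers summed to 3.53 to 13.6 FPKM with bryostatin and 3.26 to 11.9 FPKM with DMSO, with CD2 and CD8B at 0. Most of that sum was TRAC, at 11.7, 3.28 and 13.5 FPKM in bryostatin replicates 1 to 3 and 3.66, 11.5 and 3.12 FPKM in DMSO replicates 1 to 3. The 6 NK-cell markers summed to 1.82 to 3.12 FPKM with bryostatin and 1.92 to 4.67 FPKM with DMSO, with NCAM1, KLRD1 and NCR1 at 0. Most of that sum was NKG7, at 1.82 to 3.12 FPKM with bryostatin and 1.92 to 4.54 FPKM with DMSO. The 8 myeloid markers summed to 0.136 to 0.720 FPKM with bryostatin and 0.867 to 1.21 FPKM with DMSO, with S100A8 and MPO at 0. The 6 fibroblast markers summed to 0.319 to 0.534 FPKM with bryostatin and 0.422 to 0.727 FPKM with DMSO, with PDGFRB, COL1A2, LUM and DCN at 0.

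DMSO replicate 3 stood apart from DMSO replicates 1 and 2 for these genes. Relative to each gene's mean over the 6 libraries, the median member was at 0.37, 0.23 and 0.20 on the log2 scale in bryostatin replicates 1 to 3, at -0.56 and -0.45 in DMSO replicates 1 and 2, and at 0.25 in DMSO replicate 3. Members took 0.721, 0.686 and 0.663% of all reads with bryostatin, 0.408 and 0.432% in DMSO replicates 1 and 2 and 0.706% in DMSO replicate 3. DMSO replicate 3 thus lay among the bryostatin libraries. Its group comes from its label alone, and whether that label is right was not tested, so DMSO means and the fits with and without it hold only as far as the label does. Counts and medians of the members and of the other gene lists are given with and without it.

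**Figure D1:**
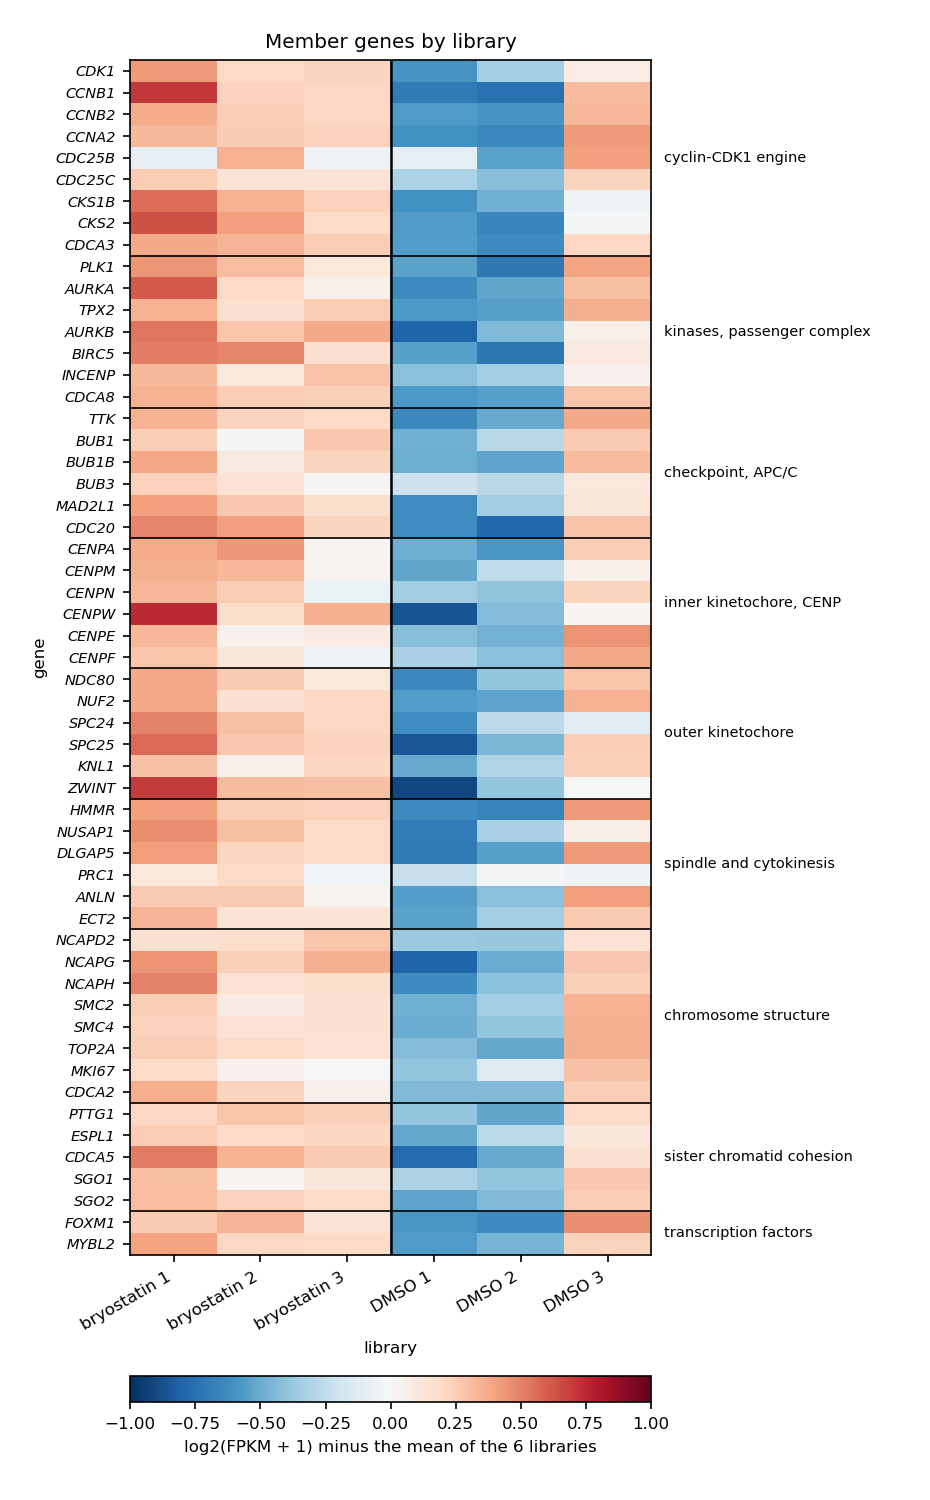
Each row is a member and each column a library, bryostatin left and DMSO right, and colour gives log2(FPKM + 1) minus the gene's mean over the 6 libraries. DMSO replicates 1 and 2 are blue in almost every row, and DMSO replicate 3 is as red as the bryostatin libraries, with medians of -0.56, -0.45 and 0.25.

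The comparison asked which mitotic transcripts differed between bryostatin-treated and DMSO-treated cells. All 54 tested members were higher with bryostatin, by log2 changes of 0.14 (CDC25B) to 0.87 (ZWINT) with a median of 0.51, or 1.43-fold, against a median of 0.02 over all genes tested. None of the 54 passed an adjusted p of 0.05 in limma, the background being 0.0% of all genes tested, and the smallest adjusted p was 0.216. At an unadjusted p under 0.05, 26 members were higher and 0 lower, where 10.5% of all genes tested were higher. With voom precision weights 0 members were called and 33 were higher at that level, with 1152 of the 11071 genes tested. In 16 members each bryostatin library lay above each DMSO library, against a background of 12.9%. Because earlier results of these data were known when the members were chosen, such shares are descriptive. No member reached a 2-fold difference, and for 31 the 95% interval included it. The count of 26 fell to 11 without DMSO replicate 1, 12 without DMSO replicate 2 and 11, 16 and 18 without bryostatin replicates 1, 2 and 3. It was 53 without DMSO replicate 3. Of the 11071 genes tested, 641, 1010 and 1730 were higher at that level without DMSO replicates 1, 2 and 3. Without bryostatin replicates 1, 2 and 3 the genes higher were 560, 1070 and 967. With all 6 libraries 1159 of all genes tested were higher and 795 lower at that level. This split turned to 848 and 1099 under TPM scaling and to 893 and 1017 under quantile normalisation, whereas members at that level were all higher under both (20 and 20).

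Without DMSO replicate 3 the 54 tested members had a median log2 change of 0.78, or 1.72-fold, against 0.02 for all genes tested. That fit sets 3 bryostatin libraries against 2 DMSO libraries. The library left out was known to be high in these same genes, so p-values of this fit describe the remaining 5 libraries and are no independent test of the members. In this fit 40 of the 54 members passed an adjusted p of 0.05, all higher, where 1.77% of all genes tested were called higher and 2.41% in either direction. Their adjusted p ran from 0.0336 to 0.0493 and their log2 changes from 0.54 to 1.11, and 9 members reached a log2 change of 1. With DMSO replicate 3 kept, no alternative gave a member an adjusted p below 0.149. The 14 members that did not pass were CDC25B, AURKA, BUB1, BUB3, CENPM, CENPN, CENPW, CENPE, CENPF, SPC24, KNL1, ZWINT, MKI67 and SGO1. Each bryostatin library lay above both remaining DMSO libraries in all 54, against 26.8% of all genes tested.

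**Figure D2:**
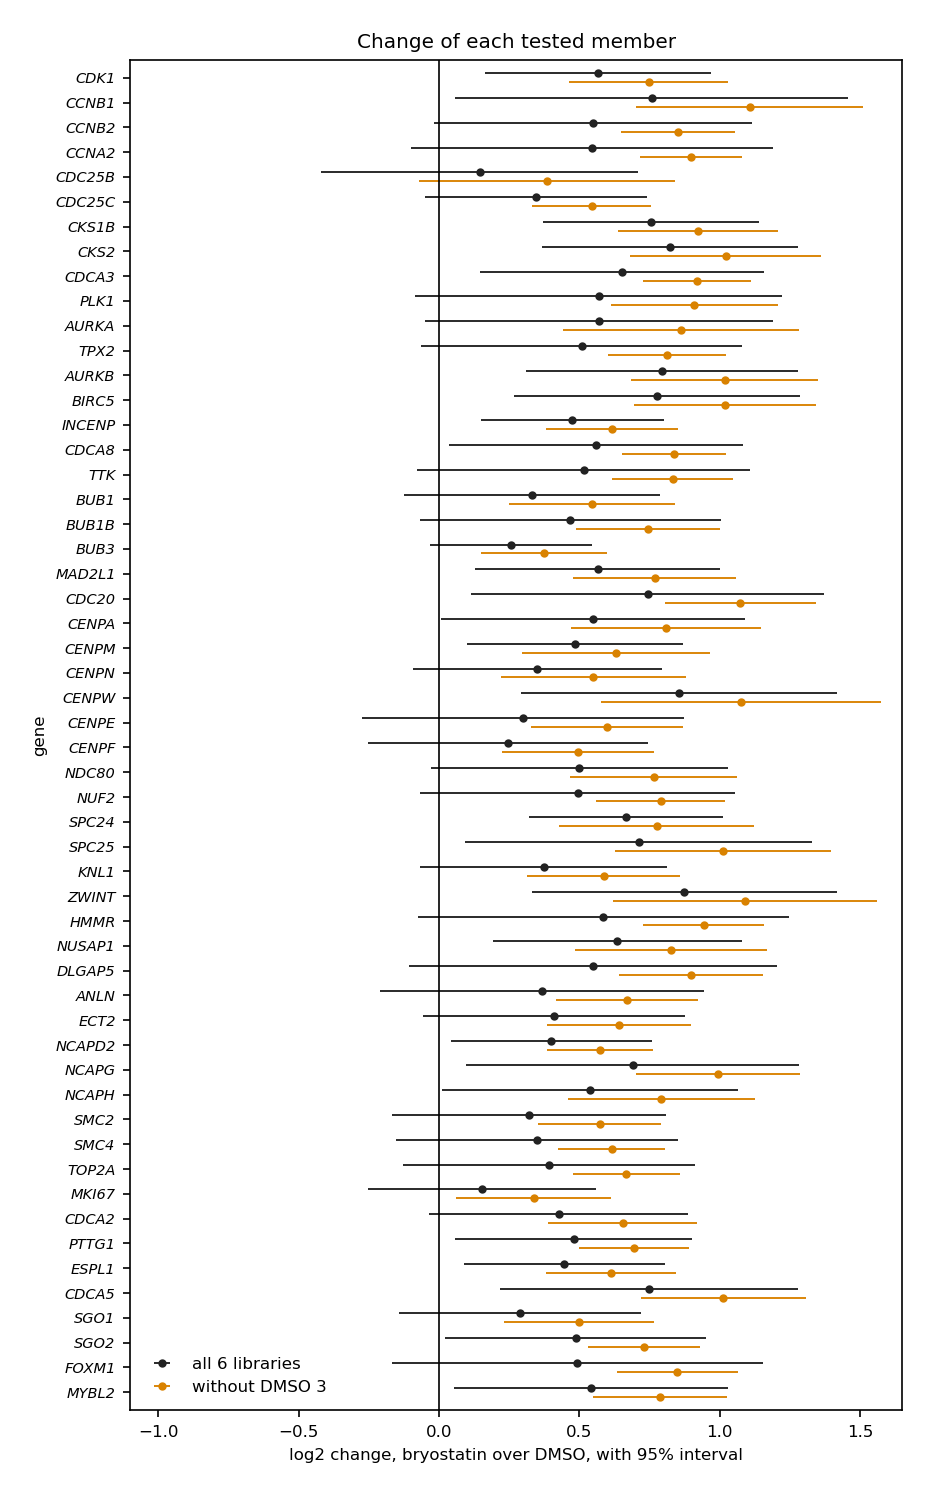
Points are log2 changes of the 54 tested members, bryostatin over DMSO, and bars are 95% intervals, in black with all 6 libraries and in orange without DMSO replicate 3. All points lie right of 0, and every orange point lies right of its black one, with medians of 0.78 and 0.51.

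Promoter sequence is shown because the members differed in the same direction and CHR elements are known from this gene class. RefSeq promoters (GRCh38.p14, 250 bases before to 50 after the gene start) were found for 46 members. Below are the 3 members with the largest log2 change, ZWINT (0.87), CENPW (0.85) and CKS2 (0.82), followed by the 2 with the smallest, CDC25B (0.14) and MKI67 (0.15). Capitals mark CHR (TTTGAA or TTCGAA) and CCAAT boxes on either strand, so TTCAAA and ATTGG are their reverse forms.
ZWINT: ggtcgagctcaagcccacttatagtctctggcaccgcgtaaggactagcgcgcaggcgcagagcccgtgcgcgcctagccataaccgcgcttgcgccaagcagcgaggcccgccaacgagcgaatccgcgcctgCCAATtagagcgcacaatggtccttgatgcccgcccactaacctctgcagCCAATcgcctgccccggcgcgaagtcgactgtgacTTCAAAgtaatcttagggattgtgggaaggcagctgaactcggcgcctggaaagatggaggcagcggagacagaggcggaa
CENPW: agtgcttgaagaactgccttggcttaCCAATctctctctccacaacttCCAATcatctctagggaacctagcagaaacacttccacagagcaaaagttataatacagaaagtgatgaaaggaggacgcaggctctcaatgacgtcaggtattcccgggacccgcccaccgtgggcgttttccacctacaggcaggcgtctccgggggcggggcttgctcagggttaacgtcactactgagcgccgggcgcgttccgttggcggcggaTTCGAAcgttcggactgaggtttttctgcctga
CKS2: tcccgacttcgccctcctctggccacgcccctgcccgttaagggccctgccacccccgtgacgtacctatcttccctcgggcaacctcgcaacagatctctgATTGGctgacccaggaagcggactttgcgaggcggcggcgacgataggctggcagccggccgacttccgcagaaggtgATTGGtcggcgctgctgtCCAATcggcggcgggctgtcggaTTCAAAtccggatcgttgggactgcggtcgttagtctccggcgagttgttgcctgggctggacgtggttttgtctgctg
CDC25B: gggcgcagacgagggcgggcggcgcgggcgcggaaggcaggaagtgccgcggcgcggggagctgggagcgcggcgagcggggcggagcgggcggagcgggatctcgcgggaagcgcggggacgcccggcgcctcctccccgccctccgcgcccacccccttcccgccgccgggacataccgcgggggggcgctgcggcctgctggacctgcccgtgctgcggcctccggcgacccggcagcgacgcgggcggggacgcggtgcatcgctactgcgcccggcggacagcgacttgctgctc
MKI67: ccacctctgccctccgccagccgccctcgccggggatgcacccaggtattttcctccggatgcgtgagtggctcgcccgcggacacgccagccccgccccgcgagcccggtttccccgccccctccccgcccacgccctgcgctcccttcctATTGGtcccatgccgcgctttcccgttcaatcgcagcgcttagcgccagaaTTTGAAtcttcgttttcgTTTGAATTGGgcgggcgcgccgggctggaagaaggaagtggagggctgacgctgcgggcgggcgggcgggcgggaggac
They lie at chr10:56361210-56361509 on the minus strand (ZWINT), chr6:126339865-126340164 on the plus strand (CENPW), chr9:89310945-89311244 on the plus strand (CKS2), chr20:3786701-3787000 on the plus strand (CDC25B) and chr10:128126374-128126673 on the minus strand (MKI67). ZWINT, CENPW and CKS2 hold 1 CHR each. The promoter of CDC25B holds neither motif in this window, whereas that of MKI67 holds 2 CHR and 2 CCAAT boxes, one of each overlapping.

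A CHR was found in 35 of the 46 member promoters (76.1%), against 11.1% of the 7723 promoters of tested genes and 16.6% of all 27305 promoters. A CCAAT box, the motif of NF-Y, was found in 34 (73.9%), against 38.5% and 35.7%. Both motifs stood together in 27 member promoters (58.7%), against 5.08% and 6.58%. The 45 CHR sites began at a median of 26 bases before the gene start, which a script gives as position -26, and 27 promoters had one between positions -60 and 20. The 77 CCAAT boxes began at a median position of -87, further upstream. E2F sites (TTTCCCGC, TTTCGCGC, TTTGCCGC or TTTGGCGC, either strand) were in 4 member promoters (8.70%), against 6.06% and 3.33%. CHR and CCAAT letters overlapped in 2 promoters, those of CDCA8 and MKI67. The median log2 change was 0.55 in the 34 tested members with the CHR letters searched and 0.54 in the 11 without them. Without DMSO replicate 3 it was 0.78 in both. Other CHR forms and sites outside the window were not searched, so the 11 may still hold a CHR. Among 41 promoters of DNA replication and licensing genes the shares ran the other way, with a CHR in 4.88% and an E2F site in 43.9%, and among 12 of mitotic kinesins 83.3% held a CHR.

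The cyclin-CDK1 engine had 9 tested members, all higher, 5 at an unadjusted p under 0.05, with a median log2 change of 0.57 (0.90 without DMSO replicate 3, where 8 passed). For this and the following groups, 10.5% of all genes tested were higher at that level. Without DMSO replicate 3, 1.77% of all genes tested were called higher. CDK1, the kinase itself, was at 43.9, 37.4 and 38.0 FPKM in bryostatin replicates 1 to 3, against 21.2 and 25.4 FPKM in DMSO replicates 1 and 2 and 34.2 FPKM in DMSO replicate 3. CCNB1, its main mitotic cyclin, was at 44.2, 31.4 and 30.9 FPKM in bryostatin replicates 1 to 3, against 15.9 and 15.5 FPKM in DMSO replicates 1 and 2 and 33.5 FPKM in DMSO replicate 3. In CCNB1 the third DMSO library lay inside the bryostatin range, while in CDK1 all 3 DMSO libraries lay below it. The log2 change was 0.57 for CDK1 (95% interval 0.16 to 0.97) and 0.76 for CCNB1 (0.06 to 1.46), and without DMSO replicate 3 they were 0.75 and 1.11 (adjusted p = 0.0443 and 0.0438 in limma). CCNB2 and CCNA2, the other cyclins, had log2 changes of 0.55 and 0.55. CCNA2 was at 67.2, 64.5 and 62.9 FPKM with bryostatin, 34.8 and 33.9 FPKM in DMSO replicates 1 and 2 and 72.4 FPKM in DMSO replicate 3, so DMSO replicate 3 exceeded every bryostatin library.

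CKS2 and CKS1B encode small paralogous adaptors that help cyclin-CDK1 bind its phosphorylated substrates. CKS2, the most abundant member of all at a mean of 136 FPKM, was at 201, 171 and 147 FPKM in bryostatin replicates 1 to 3, against 86.4 and 81.5 FPKM in DMSO replicates 1 and 2 and 127 FPKM in DMSO replicate 3. CKS1B was at 41.6, 35.9 and 32.9 FPKM in bryostatin replicates 1 to 3, against 18.0 and 19.8 FPKM in DMSO replicates 1 and 2 and 27.1 FPKM in DMSO replicate 3. In both paralogs the 3 DMSO libraries lay below all bryostatin libraries, with log2 changes of 0.82 (95% interval 0.37 to 1.28) and 0.76 (0.37 to 1.14). Processed pseudogenes of CKS1B are in the table, CKS1BP3 with 16 reads per library on average, so some CKS1B reads are uncertain. CDCA3, a trigger of mitotic entry, was at 16.7, 16.2 and 15.3 FPKM with bryostatin, 8.23 and 7.82 FPKM in DMSO replicates 1 and 2 and 14.8 FPKM in DMSO replicate 3. Of the CDK1-activating phosphatases, CDC25C had a log2 change of 0.35 and CDC25B of 0.14, a difference that was not tested. CDC25B was at 24.3, 33.1 and 24.8 FPKM in bryostatin replicates 1 to 3, against 24.1 and 17.4 FPKM in DMSO replicates 1 and 2 and 34.4 FPKM in DMSO replicate 3. It is the member with the smallest difference, its groups overlapped, and its sign turned without DMSO replicate 2 (-0.088).

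The 7 mitotic kinase and chromosomal passenger members were all higher, 4 at an unadjusted p under 0.05, with a median log2 change of 0.57 (0.86 without DMSO replicate 3, where 6 passed). AURKB, the kinase of the passenger complex that corrects faulty attachments, was at 53.0, 44.3 and 47.5 FPKM in bryostatin replicates 1 to 3, against 20.4 and 26.5 FPKM in DMSO replicates 1 and 2 and 37.6 FPKM in DMSO replicate 3. BIRC5 (survivin), which brings the complex to centromeres, was at 44.8, 44.0 and 35.0 FPKM in bryostatin replicates 1 to 3, against 21.1 and 18.5 FPKM in DMSO replicates 1 and 2 and 33.3 FPKM in DMSO replicate 3. INCENP, its scaffold, was at 33.8, 28.7 and 32.7 FPKM with bryostatin, 19.7 and 20.9 FPKM in DMSO replicates 1 and 2 and 27.5 FPKM in DMSO replicate 3. These 3 subunits did not overlap between the groups, with log2 changes of 0.79, 0.78 and 0.48. The fourth subunit, borealin (CDCA8), was at 38.4, 36.1 and 35.6 FPKM with bryostatin, 19.9 and 20.3 FPKM in DMSO replicates 1 and 2 and 36.6 FPKM in DMSO replicate 3, so its groups overlapped. PLK1, a kinase of centrosome maturation and mitotic exit, was at 41.5, 37.8 and 32.8 FPKM in bryostatin replicates 1 to 3, against 20.7 and 18.1 FPKM in DMSO replicates 1 and 2 and 40.4 FPKM in DMSO replicate 3. TPX2, which activates Aurora A on the spindle, was at 76.5, 67.2 and 71.5 FPKM in bryostatin replicates 1 to 3, against 39.9 and 40.8 FPKM in DMSO replicates 1 and 2 and 76.9 FPKM in DMSO replicate 3. For TPX2 DMSO replicate 3 was the highest of the 6 libraries. AURKA (Aurora A) had a log2 change of 0.57, and 0.86 without DMSO replicate 3 (adjusted p = 0.0594 in limma). Its pseudogene AURKAP1 held 10.8 reads per library on average, against 750.0 for AURKA.

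**Figure D3:**
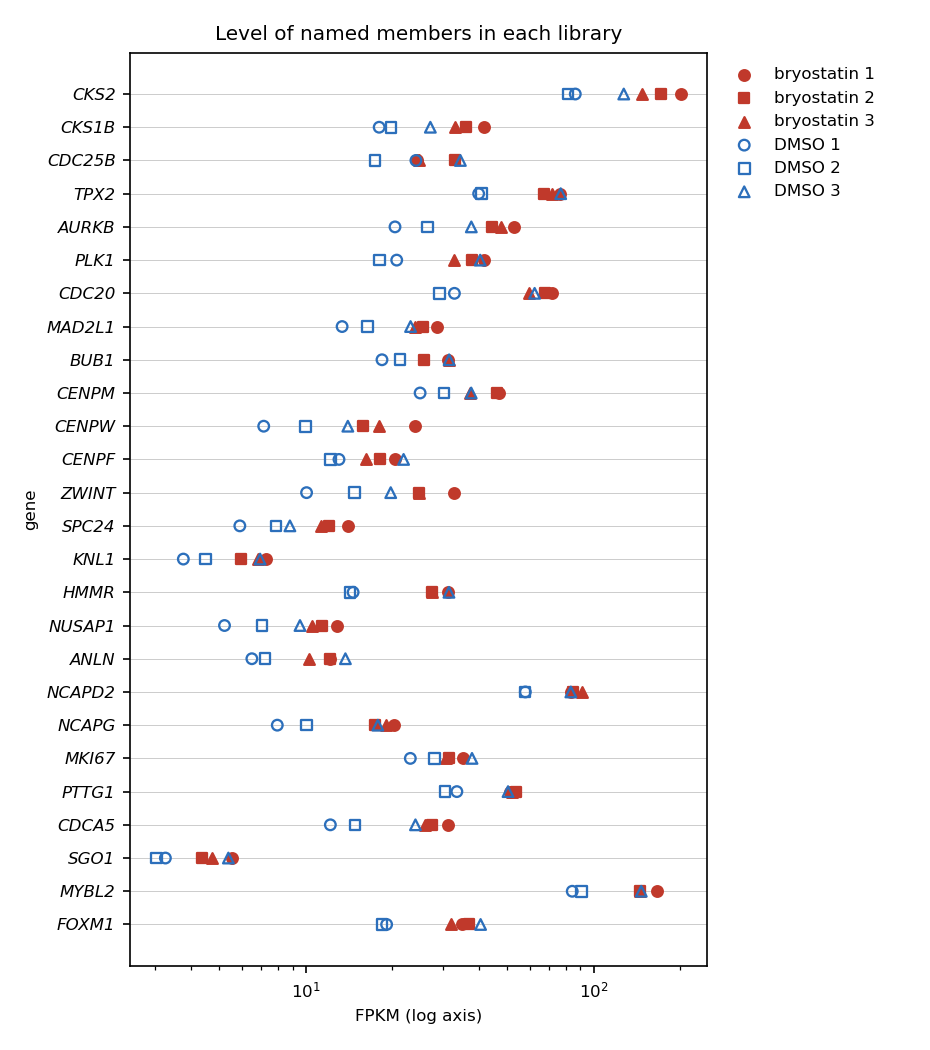
Each row is 1 of 26 named members, and points give its FPKM on a log axis in each library, filled red for bryostatin and open blue for DMSO, with the replicate shown by shape. In CKS2, CKS1B, AURKB, CENPW, ZWINT and SPC24 the open triangle of DMSO replicate 3 lies below all red points, and in FOXM1, CENPF, MKI67 and ANLN above all of them.

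Of the 6 checkpoint and APC/C members, all higher, 2 had an unadjusted p under 0.05, and the median log2 change was 0.49 (0.76 without DMSO replicate 3, where 4 passed). CDC20, the APC/C coactivator that the checkpoint inhibits, was at 71.8, 68.0 and 59.5 FPKM in bryostatin replicates 1 to 3, against 32.8 and 29.1 FPKM in DMSO replicates 1 and 2 and 62.4 FPKM in DMSO replicate 3. MAD2L1, the checkpoint protein that binds CDC20, was at 28.5, 25.6 and 24.0 FPKM in bryostatin replicates 1 to 3, against 13.4 and 16.4 FPKM in DMSO replicates 1 and 2 and 23.1 FPKM in DMSO replicate 3. Only for MAD2L1 among the 6 were all DMSO libraries below all bryostatin libraries. The upstream kinases TTK and BUB1 had log2 changes of 0.52 and 0.33. BUB1 was at 31.1, 25.7 and 31.6 FPKM with bryostatin, 18.4 and 21.3 FPKM in DMSO replicates 1 and 2 and 31.5 FPKM in DMSO replicate 3, so DMSO replicate 3 lay inside the bryostatin range. BUB1B, the BUBR1 component of the inhibitory complex, had a log2 change of 0.47. BUB3, a WD-repeat partner of both BUB proteins that also serves outside mitosis, had the smallest of the group at 0.26, with 25.6, 24.2 and 21.9 FPKM with bryostatin, 18.6 and 17.7 FPKM in DMSO replicates 1 and 2 and 23.4 FPKM in DMSO replicate 3.

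The 6 inner kinetochore and CENP members were all higher, 3 at an unadjusted p under 0.05, with a median log2 change of 0.42 (0.61 without DMSO replicate 3, where 1, CENPA, passed). CENPA, the histone H3 variant that marks centromeres, was at 15.8, 16.5 and 12.2 FPKM in bryostatin replicates 1 to 3, against 8.27 and 7.66 FPKM in DMSO replicates 1 and 2 and 14.4 FPKM in DMSO replicate 3. CENPW, a histone-fold subunit of the constitutive centromere network, was at 23.9, 15.8 and 18.0 FPKM in bryostatin replicates 1 to 3, against 7.14 and 9.99 FPKM in DMSO replicates 1 and 2 and 14.0 FPKM in DMSO replicate 3. CENPW did not overlap between groups and had a log2 change of 0.85 (95% interval 0.29 to 1.42). CENPM, the most abundant of the group, was at 46.8, 46.0 and 37.2 FPKM with bryostatin, 25.0 and 30.3 FPKM in DMSO replicates 1 and 2 and 37.6 FPKM in DMSO replicate 3, a log2 change of 0.49. CENPN, which recognises CENPA nucleosomes, had a log2 change of 0.35. The 2 large coiled-coil proteins of the group lay at the low end. CENPF was at 20.4, 18.2 and 16.2 FPKM in bryostatin replicates 1 to 3, against 13.0 and 12.2 FPKM in DMSO replicates 1 and 2 and 21.9 FPKM in DMSO replicate 3, a log2 change of 0.25 with an interval of -0.25 to 0.75. CENPE, a kinesin motor that moves chromosomes to the spindle equator, had a log2 change of 0.30, and for it too DMSO replicate 3 was the highest library.

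Of 6 outer kinetochore members, all higher, 3 had an unadjusted p under 0.05, and the median log2 change was 0.58 (0.78 without DMSO replicate 3, where 3 passed). ZWINT, which links KNL1 to the checkpoint machinery, had the largest log2 change of all members at 0.87 (95% interval 0.33 to 1.42), at 32.7, 24.8 and 24.7 FPKM in bryostatin replicates 1 to 3, against 10.1 and 14.8 FPKM in DMSO replicates 1 and 2 and 19.7 FPKM in DMSO replicate 3. The 4 subunits of the NDC80 complex, the microtubule-binding arm, were not alike in the third DMSO library. SPC24 was at 14.0, 12.1 and 11.3 FPKM in bryostatin replicates 1 to 3, against 5.90 and 7.88 FPKM in DMSO replicates 1 and 2 and 8.81 FPKM in DMSO replicate 3, so all DMSO libraries lay below those with bryostatin. Its partner SPC25 was at 15.7, 12.6 and 12.2 FPKM in bryostatin replicates 1 to 3, against 5.25 and 7.19 FPKM in DMSO replicates 1 and 2 and 12.4 FPKM in DMSO replicate 3, so DMSO replicate 3 lay inside the bryostatin range. NDC80 and NUF2, the other dimer, had log2 changes of 0.50 and 0.49, also with DMSO replicate 3 inside. KNL1, the large scaffold for BUB1 and BUB1B, was at 7.25, 5.96 and 6.83 FPKM with bryostatin, 3.76 and 4.48 FPKM in DMSO replicates 1 and 2 and 6.94 FPKM in DMSO replicate 3, with a log2 change of 0.37.

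Spindle and cytokinesis genes had 5 tested members, all higher, with NUSAP1 alone at an unadjusted p under 0.05, with a median log2 change of 0.55 (0.83 without DMSO replicate 3, where all 5 passed). HMMR, a spindle-assembly protein, was at 31.2, 27.5 and 27.4 FPKM in bryostatin replicates 1 to 3, against 14.6 and 14.3 FPKM in DMSO replicates 1 and 2 and 31.4 FPKM in DMSO replicate 3. NUSAP1, which bundles spindle microtubules, was at 12.9, 11.4 and 10.5 FPKM in bryostatin replicates 1 to 3, against 5.22 and 7.05 FPKM in DMSO replicates 1 and 2 and 9.55 FPKM in DMSO replicate 3. NUSAP1 did not overlap, whereas HMMR did because of DMSO replicate 3. DLGAP5, a microtubule-stabilising Aurora A substrate, and ECT2, the RhoA activator of the cleavage furrow, had log2 changes of 0.55 and 0.41. ANLN, an actin-binding ring protein, was at 12.2, 12.2 and 10.3 FPKM with bryostatin, 6.50 and 7.23 FPKM in DMSO replicates 1 and 2 and 13.7 FPKM in DMSO replicate 3, with a log2 change of 0.37. PRC1, a midzone microtubule bundler, averaged too little to be tested, with 0.496, 0.597 and 0.369 FPKM with bryostatin, 0.184 and 0.380 FPKM in DMSO replicates 1 and 2 and 0.361 FPKM in DMSO replicate 3. AC068831.7 overlaps it on the same strand, so the level of PRC1 is uncertain.

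The 8 chromosome structure members were all higher, 3 at an unadjusted p under 0.05, with a median log2 change of 0.40 (0.63 without DMSO replicate 3, where 7 passed). NCAPD2, a condensin I subunit, was at 83.8, 85.0 and 91.1 FPKM in bryostatin replicates 1 to 3, against 57.9 and 57.8 FPKM in DMSO replicates 1 and 2 and 83.4 FPKM in DMSO replicate 3. NCAPG, a second condensin I subunit, was at 20.3, 17.4 and 18.9 FPKM in bryostatin replicates 1 to 3, against 7.96 and 10.1 FPKM in DMSO replicates 1 and 2 and 17.8 FPKM in DMSO replicate 3. Although both encode parts of 1 complex, their log2 changes were 0.40 and 0.69, a difference that was not tested. NCAPH, the kleisin of condensin I, had a log2 change of 0.54. The ATPases shared by both condensins, SMC2 and SMC4, had 0.32 and 0.35, each with DMSO replicate 3 above the bryostatin libraries. TOP2A, which disentangles sister DNA, was at 78.8, 76.0 and 73.5 FPKM in bryostatin replicates 1 to 3, against 48.9 and 46.2 FPKM in DMSO replicates 1 and 2 and 85.1 FPKM in DMSO replicate 3. MKI67, the Ki-67 proliferation marker that coats mitotic chromosomes, was at 35.2, 31.6 and 30.6 FPKM in bryostatin replicates 1 to 3, against 23.1 and 28.0 FPKM in DMSO replicates 1 and 2 and 37.8 FPKM in DMSO replicate 3. Its log2 change of 0.15 (interval -0.25 to 0.56) was the second smallest, and its sign turned without DMSO replicate 1 (-0.0062). CDCA2 (Repo-Man), which targets a phosphatase to anaphase chromatin, had a log2 change of 0.43.

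Among 5 sister chromatid cohesion genes, all higher, 4 had an unadjusted p under 0.05, and the median log2 change was 0.48 (0.70 without DMSO replicate 3, where 4 passed). PTTG1 (securin), the inhibitor of separase, was at 51.2, 53.7 and 52.2 FPKM in bryostatin replicates 1 to 3, against 33.5 and 30.5 FPKM in DMSO replicates 1 and 2 and 50.4 FPKM in DMSO replicate 3. ESPL1 (separase), the protease that cuts cohesin, was at 12.2, 11.7 and 11.8 FPKM in bryostatin replicates 1 to 3, against 6.77 and 8.17 FPKM in DMSO replicates 1 and 2 and 11.0 FPKM in DMSO replicate 3. CDCA5 (sororin), which keeps cohesin on DNA until mitosis, was at 31.2, 27.6 and 25.9 FPKM in bryostatin replicates 1 to 3, against 12.2 and 14.8 FPKM in DMSO replicates 1 and 2 and 24.1 FPKM in DMSO replicate 3. In all 3 the DMSO libraries lay below those with bryostatin, by log2 changes of 0.48, 0.45 and 0.75. The shugoshins SGO1 and SGO2, which protect centromeric cohesin, had 0.29 and 0.49 with DMSO replicate 3 inside the bryostatin range. SGO1, at 5.52, 4.37 and 4.71 FPKM with bryostatin, 3.25 and 3.03 FPKM in DMSO replicates 1 and 2 and 5.39 FPKM in DMSO replicate 3, was the least expressed of the tested members.

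Both transcription factors of the programme were higher, 1 at an unadjusted p under 0.05, with a median log2 change of 0.52. MYBL2 (B-MYB), the second most abundant member, was at 166, 145 and 144 FPKM in bryostatin replicates 1 to 3, against 84.3 and 90.6 FPKM in DMSO replicates 1 and 2 and 146 FPKM in DMSO replicate 3. FOXM1 was at 34.9, 37.0 and 32.1 FPKM in bryostatin replicates 1 to 3, against 19.1 and 18.4 FPKM in DMSO replicates 1 and 2 and 40.5 FPKM in DMSO replicate 3. Their log2 changes were 0.54 (95% interval 0.05 to 1.03) and 0.49 (-0.17 to 1.15), and without DMSO replicate 3 0.79 and 0.85, where both passed (adjusted p = 0.0344 and 0.0336 in limma). For FOXM1 DMSO replicate 3 was the highest library.

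DMSO replicate 3 lay above the bryostatin range in 14 tested members, inside it in 24 and below it in 16, where the background over all genes tested was 30.7%, 39.0% and 30.3%. It exceeded DMSO replicates 1 and 2 in 54 of 55 members, against a background of 40.7%. The mean of the bryostatin libraries was above DMSO replicate 3 in 27 tested members and below it in 27, with differences from -0.34 to 0.45 and a median of -0.0055 on the log2 scale. The SD of log2 values was larger in DMSO than in bryostatin libraries in 55 of 55 members, by a median of 3.34 times, against 60.4% of genes and 1.23 times over all genes tested. The lowest library was DMSO replicate 1 in 32 members and DMSO replicate 2 in 23, and the highest was bryostatin replicate 1 in 36 and DMSO replicate 3 in 14.

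Gene length moved with both patterns. The 14 members with DMSO replicate 3 above the bryostatin libraries had a median length of 5456 bases and a median log2 change of 0.38. The 16 with it below had a median length of 3345 bases and a median log2 change of 0.66. DMSO replicate 3 enters both the classes and the log2 change, so their order of change follows in part from how they were made. Without DMSO replicate 3 the medians were 0.67 for the 14 and 0.87 for the 16, though bryostatin values still enter both. Short genes such as CKS2 (613 bases) and CENPW (795) had the larger changes, and long genes such as CENPF (11690) and MKI67 (12807) the smaller ones. Across the 54 members Spearman's rho between length and log2 change was -0.65, against -0.23 across all 11071 genes tested; genes share the same 6 libraries and are not independent. In the shortest 20% of genes tested the median was 0.71 for 7 members and 0.09 for all genes, and in the longest 20% 0.30 for 7 members and -0.06 for all genes. With the length trend removed the members' median was 0.50, still with 54 higher. The part of length in the ordering of members was not tested further.

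**Figure D4:**
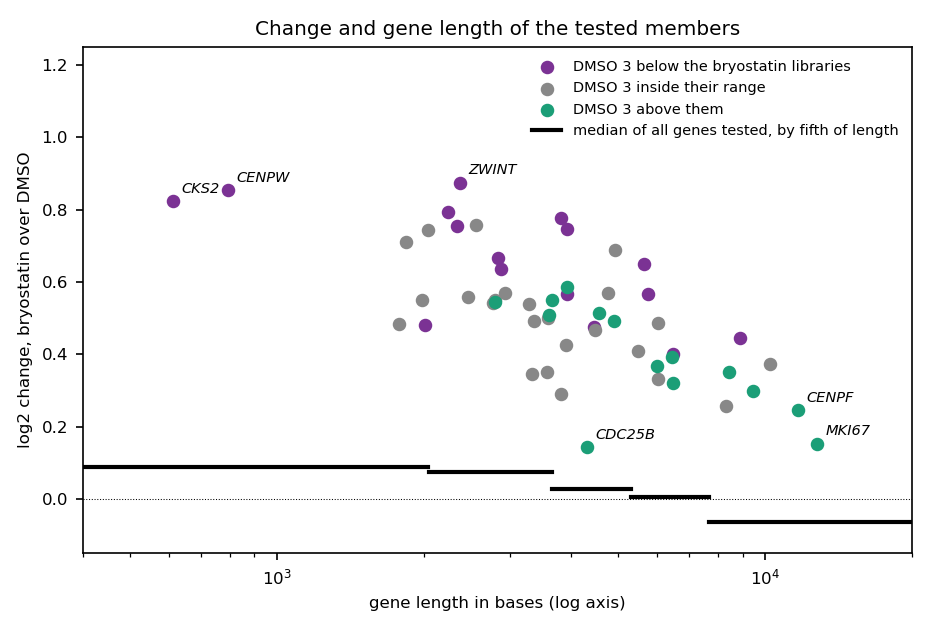
Points are the 54 tested members by gene length (log axis) and log2 change, coloured by where DMSO replicate 3 lay, and black bars are medians of all genes tested in 5 classes of length. Members lie above the bars at every length, and green points, with DMSO replicate 3 above the bryostatin libraries, sit at longer genes and lower changes than purple ones (median lengths of 5456 and 3345 bases). DMSO replicate 3 enters both the colour and the log2 change, so colour and change are not independent.

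Other genes of the same pathway, listed by function, were read in the same way. Of 24 tested kinetochore and centromere genes, each was higher with bryostatin, 14 at an unadjusted p under 0.05, with a median log2 change of 0.41. Over all genes tested 10.5% were higher at that level. MIS12, a subunit that anchors the outer kinetochore, was at 10.5, 10.4 and 9.91 FPKM with bryostatin, 7.42 and 7.20 FPKM in DMSO replicates 1 and 2 and 8.14 FPKM in DMSO replicate 3. Of 20 genes listed under spindle and cytokinesis 19 were higher, 13 at that level, with a median of 0.51. These counts include PIF1 at 0.54, a helicase gene that is not a spindle or cytokinesis gene by function. Of 15 mitotic entry and kinase genes 14 were higher, 3 at that level, with a median of 0.37, and PKMYT1, an inhibitory kinase of CDK1, had 0.73. Checkpoint and APC/C genes outside the members had 19 of 23 higher, 5 at that level, and a median of 0.16, and UBE2S, the enzyme that extends the ligase's ubiquitin chains, had 0.76. Cohesin and condensin genes outside the members had 11 of 15 higher, 2 higher and 1 lower at that level, a median of 0.11, and 0.50 for the condensin II subunit NCAPH2. Genes of the DREAM and MuvB complexes, listed with the kinase DYRK1A, had 8 of 11 higher, 0 at that level, and a median of 0.14, with LIN9 at 0.31. In none of these lists did a gene pass an adjusted p of 0.05 in limma, the background again being 0.0%. Without DMSO replicate 3 the median of the DREAM and MuvB list was 0.34 with 1 of 11 called, and that of the cohesin and condensin genes was 0.28 with 1 of 15 called. Checkpoint and APC/C genes then had a median of 0.24 with 5 of 23 called, and mitotic entry and kinase genes 0.55 with 4 of 15 called. Kinetochore and centromere genes had 0.57 with 6 of 24 called, and spindle and cytokinesis genes 0.70 with 14 of 20 called. In that fit 1.77% of all genes tested were called higher. As for the members, its p-values are no independent test.

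Set beside them, 48 DNA replication and licensing genes had a median log2 change of 0.51, 46 higher and 24 at an unadjusted p under 0.05, with RPA3 at 0.71. The 12 mitotic kinesins had a median of 0.47, all higher, 4 at that level, with KIFC1 at 0.72. The share over all genes tested was 10.5% higher at that level. Medians of members, kinesins and replication genes were 0.78, 0.72 and 0.74 without DMSO replicate 3, with 40 of 54, 8 of 12 and 12 of 48 called. The background called higher in that fit was 1.77% of all genes tested. DMSO replicate 3 was above the bryostatin range in 14 of 54 members, 6 of 12 kinesins and 6 of 48 replication genes. These differences between lists were not tested. Housekeeping genes had a median log2 change of 0.13 with 7 of 12 higher, mitochondrially encoded mRNAs 0.14 with 10 of 13 higher, and B-cell markers -0.05 with 3 of 9 higher. Without DMSO replicate 3 these medians were 0.19, 0.21 and -0.14, with 0 genes called in each list.

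**Figure D5:**
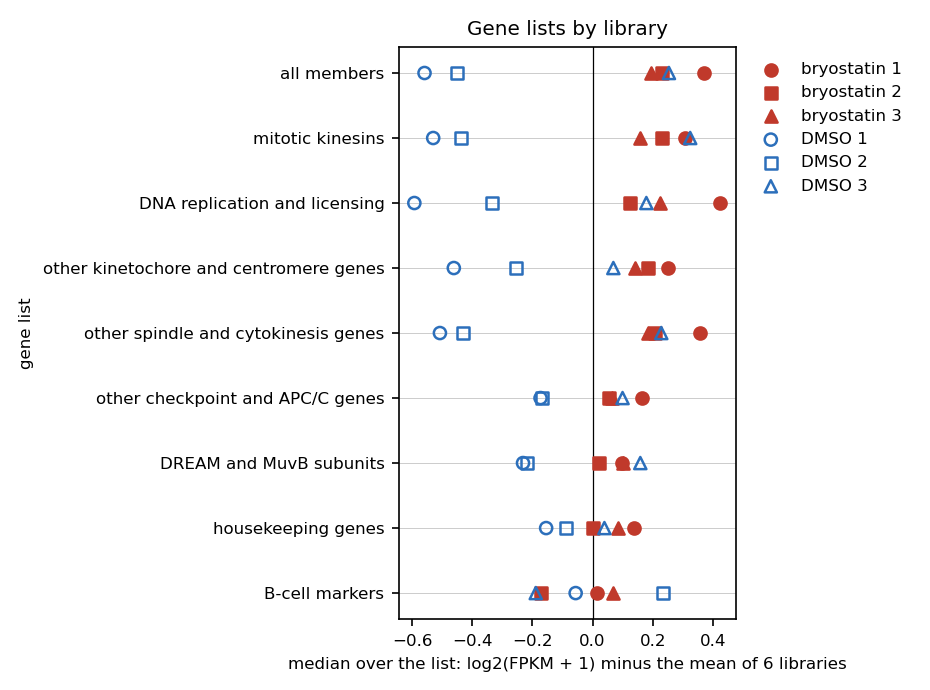
For each gene list and library the point gives the median over its tested genes of log2(FPKM + 1) minus the gene's mean over 6 libraries, filled red for bryostatin and open blue for DMSO. For the members, kinesins and replication genes DMSO replicates 1 and 2 lie far left and DMSO replicate 3 within or next to the bryostatin libraries. The DREAM and MuvB list, housekeeping genes and B-cell markers spread less. In the DREAM and MuvB list DMSO replicates 1 and 2 are still lowest (-0.23 and -0.22) and DMSO replicate 3 highest (0.16). In housekeeping genes DMSO replicates 1 and 2 are lowest too (-0.15 and -0.09), with DMSO replicate 3 at 0.04. B-cell markers do not show this order.

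The strand setting of the read counting is not given in the sources used here, so reads of overlapping genes cannot be told apart. In 12 members an overlapping gene held over 10% of the member's reads. They included CCNA2 with EXOSC9 (997.5 reads per library on average), CDC25C with FAM53C (1530), NCAPD2 with MRPL51 (3519) and FOXM1 with RHNO1 (731) and ITFG2 (605), all on the opposite strand. CENPA overlapped SLC35F6 (348) on the same strand.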

How the data were processed

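Polyadenylated RNA of 6 Raji libraries was sequenced, and the authors deposited FPKM values with gene lengths, per the file headers. Build hg38 and, as tools without roles, DESeq2 1.20.0, featureCounts 1.5.0-p3, CASAVA and HISAT2 2.0.5 are listed per the submitters' processing notes. FPKM multiplied by gene length, divided by the step that 1 read makes in each library (its lowest value, refined on higher ones), gave whole reads for 100% of values (within 0.001 reads); these reads gave the depth and were used with voom only, and intervals cover the spread between libraries. The 11071 of 58735 genes averaging 1 FPKM or more were tested on log2(FPKM + 1), a scale that understates changes of low genes, with limma 3.58.1 in R 4.3.3 (intensity trend, no covariates, two-sided, Benjamini-Hochberg over all genes tested, threshold 0.05). The procedure was tested on simulated data without an outlying library, so that test does not cover the place of DMSO replicate 3. Library pairs differed beyond sampling noise. An exact permutation test of 3 against 3 libraries cannot give a p below 0.1, so none was used.

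Members with full values were, by rule, those with the highest level, smallest p and largest p in each role group, and the smallest p in other lists; further members shown beside them were added after their values were seen. The members and lists were chosen with earlier results of these data known. Promoters came from RefSeq (GRCh38.p14). The alternatives covered pseudocount, filter, scaling, test, gene length, replicate block and each library left out.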

Additional observations from a re-analysis of the deposited data

How the results depend on the processing

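Over the 14 processing alternatives that kept all 6 libraries, the members' median log2 change stayed between 0.45 and 0.55, with 0 members called and 20 to 33 at an unadjusted p under 0.05. Exactly 1 gene was called with a pseudocount of 0.1 and 1 with TPM scaling, in both cases the 5S pseudogene RNA5SP82, against 0 as reported. Leaving out 1 library at a time gave 0 to 267 called genes, 0 to 40 called members, medians of 0.35 to 0.78 and 11 to 53 members at an unadjusted p under 0.05, the upper ends all without DMSO replicate 3. Over all genes tested 560 to 1730 were then higher at that level. Signs turned in 2 members, MKI67 ranging from -0.0062 (without DMSO replicate 1) to 0.34 (without DMSO replicate 3) and CDC25B from -0.088 (without DMSO replicate 2) to 0.38 (without DMSO replicate 3). DMSO replicate 3 was the highest library for both (37.8 and 34.4 FPKM), so it weighs more in the DMSO mean once another DMSO library is left out. Why DMSO replicate 3 was high was not tested. With the replicate block 0 genes and 0 members were called and the median was 0.51. At an unadjusted p under 0.05, 22 members and 784 of all genes tested were then higher. Same-numbered libraries correlated at -0.29, -0.32 and -0.11 in their deviations from the group means. These values give no sign of pairing by number, but with 3 libraries per group they cannot decide it. PRC1 had the fewest reads of the members, 45.5 per library on average, and an annotation overlaps it on the same strand.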

Other observations

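PRC1, at chr15:90966038-90995629 (hg38, minus strand), had 52, 66 and 44 reads in bryostatin replicates 1 to 3 and 25, 46 and 40 reads in DMSO replicates 1 to 3. AC068831.7, a protein-coding annotation that overlaps it on the same strand (chr15:90966190-91022566), had 167, 116 and 185 reads in bryostatin replicates and 122, 120 and 170 reads in DMSO replicates. Reads in the shared stretch cannot be assigned to either from these values.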
